A study of Homo sapiens with 12 samples.

Results

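The transcripts of 10 human sialyltransferase genes, ST3GAL1, ST3GAL2, ST3GAL3, ST3GAL4, ST3GAL5, ST3GAL6, ST6GAL1, ST6GALNAC2, ST6GALNAC4 and ST6GALNAC5, were followed in MDA-MB-231, a metastatic human breast cancer cell line. The genes were taken by name, with earlier results of these data known. Every array probe set that the platform annotation gives to 1 of them alone was read, 33 of the 54613 that are not controls. The 10 genes are among 19775 that have such a probe set. There were 3 groups of 4 arrays, lettered A to D and described as biological replicates. The control cells carried a retroviral short hairpin against GFP (shGFP). The second group carried retroviral hairpins against HIF1a and HIF2a, the oxygen-regulated subunits of the hypoxia-inducible factors (shHIF). The third group overexpressed Sharp1, the basic helix-loop-helix repressor encoded by BHLHE41. All cells were grown untreated in ordinary medium with serum. The Sharp1 vector, a matching empty-vector control, and whether any line was a clone are not stated in the labels. The design text does not say whether the replicates were separate infections or parallel cultures, so each p-value reflects variation among these arrays, which may be partly technical.

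Sialyltransferases are Golgi enzymes that move sialic acid from the donor CMP-sialic acid onto the ends of sugar chains on glycoproteins and glycolipids. The ST3GAL and ST6GAL enzymes cap terminal galactose in different linkages, and the ST6GALNAC enzymes act on N-acetylgalactosamine in mucin-type O-glycans or in gangliosides, the sialic acid-bearing glycolipids. Sialylated ends form part of the ligands of selectins and of other sialic acid-binding lectins, and they screen galactose from galectins. ST6GALNAC5 makes a brain-type ganglioside, is normally found mainly in brain, and is known from earlier work on brain-seeking sublines of breast cancer cells, among them sublines of MDA-MB-231, as a mediator of passage across the blood-brain barrier.

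For ST6GALNAC5, ST6GAL1 and ST3GAL4, the sequence upstream of the annotated start is shown, since Sharp1 is known to bind the E-box CACGTG and hypoxia-inducible factors are known to bind elements with an ACGTG or GCGTG core. RefSeq windows on GRCh38.p14, each 300 bases long from 250 before to 50 after a start, were read for 7 of the 10 members, in 16 windows. ST3GAL2 and ST6GALNAC2 had no window, and ST3GAL1 was not read here. The 250 bases before the start are printed 5′ to 3′ on the plus strand, with capitals on any match to these motifs on either strand. They lie at chr1:76867230-76867479 for ST6GALNAC5, chr3:186930276-186930525 for ST6GAL1 and chr11:126355762-126356011 for ST3GAL4.
ST6GALNAC5: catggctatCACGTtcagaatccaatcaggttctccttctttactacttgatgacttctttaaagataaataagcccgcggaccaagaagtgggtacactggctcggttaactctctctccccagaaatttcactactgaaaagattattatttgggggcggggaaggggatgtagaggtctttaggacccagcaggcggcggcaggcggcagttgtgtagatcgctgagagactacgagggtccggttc
ST6GAL1: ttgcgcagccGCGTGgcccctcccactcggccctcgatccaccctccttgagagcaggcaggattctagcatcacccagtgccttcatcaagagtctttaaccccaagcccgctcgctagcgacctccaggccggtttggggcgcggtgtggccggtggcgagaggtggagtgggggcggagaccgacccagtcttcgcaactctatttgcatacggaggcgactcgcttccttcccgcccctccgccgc
ST3GAL4: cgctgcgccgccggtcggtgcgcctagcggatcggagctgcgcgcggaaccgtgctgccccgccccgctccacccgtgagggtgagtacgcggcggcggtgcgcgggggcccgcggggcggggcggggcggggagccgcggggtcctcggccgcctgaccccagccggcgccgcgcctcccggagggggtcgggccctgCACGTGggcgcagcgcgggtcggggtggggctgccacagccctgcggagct
The ST6GALNAC5 window held 1 ACGTG match, on the minus strand and so read as CACGT, starting 241 bases before the start. The ST6GAL1 window held 1 GCGTG match, 240 bases before the start. The ST3GAL4 sequence held the only CACGTG among the 16 member windows, 51 bases before the start, and this E-box contains ACGTG on both strands. Across all 35116 windows of the table, 7.3% held CACGTG, 21.4% held ACGTG and 36.5% held GCGTG. Among the 16 member windows, ACGTG was in 5 and GCGTG was in 5. The GCGTG windows include overlapping windows of ST3GAL5 that hold the same site. These matches describe letters in a short window and no binding was measured here. The GC content of the 3 printed stretches was 49.6% for ST6GALNAC5, 65.6% for ST6GAL1 and 82.8% for ST3GAL4.

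All values are deposited log2 intensities, so a difference of 1 is a change of 2-fold, and values of different probe sets are not compared with each other. Each gene was read from its brightest probe set in a limma model over all 19775 genes, and a gene was called at a Benjamini-Hochberg adjusted p under 0.05. The label checks showed EPAS1, the gene of HIF2a, at 9.53 in shGFP, 6.68 in shHIF and 8.82 in Sharp1, and HIF1A at 12.78, 12.05 and 12.87. A BHLHE41 probe set read 3.89 in shGFP and 9.24 in Sharp1, 1 fell from 6.62 to 4.56, another rose from 4.42 to 6.01, and the last was not called. All 6 genes chosen as high in MDA-MB-231 (VIM, CD44, CAV1, AXL, EGFR, MSN) were above the median probe set of 5.41. The luminal breast list had 4 of 7 above it (ESR1, ERBB2, GATA3, EPCAM), and the leukocyte list had 1 of 5. Array medians lay between 5.38 and 5.44. The mean of the hybridisation spike-in controls was 10.39 on shHIF A and 10.45 on shHIF D, against 10.63 to 10.81 on the other arrays.

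ST6GALNAC5 fell in Sharp1 cells and rose in shHIF cells. Its level on the shGFP arrays was 6.14, 6.25, 5.88 and 6.13. On the shHIF arrays it was 6.78, 7.11, 7.14 and 6.96, and on the Sharp1 arrays it was 4.18, 4.39, 4.19 and 4.37. The 3 groups did not overlap: every Sharp1 array lay below every control array, and every shHIF array lay above. The group means were 6.10 ± 0.15 in shGFP, 7.0 ± 0.17 in shHIF and 4.28 ± 0.11 in Sharp1 (SD, n = 4 each). The Sharp1 value was lower than control by 3.53-fold (log2 difference -1.82, SE 0.10, limma adjusted p = 3.06e-13), which leaves 28.4% of the control intensity. The Sharp1 mean lies below the median probe set of 5.41, where background intensity limits how exactly such folds can be read. The shHIF value was 1.86-fold higher than control (log2 difference 0.90, SE 0.10, limma adjusted p = 1.59e-07). Set directly against each other, Sharp1 cells were 6.56-fold lower than shHIF cells (log2 difference -2.71, limma adjusted p = 9.46e-17). In bulk RNA, fewer cells with a transcript and less transcript per cell cannot be told apart.

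**Figure D1:**
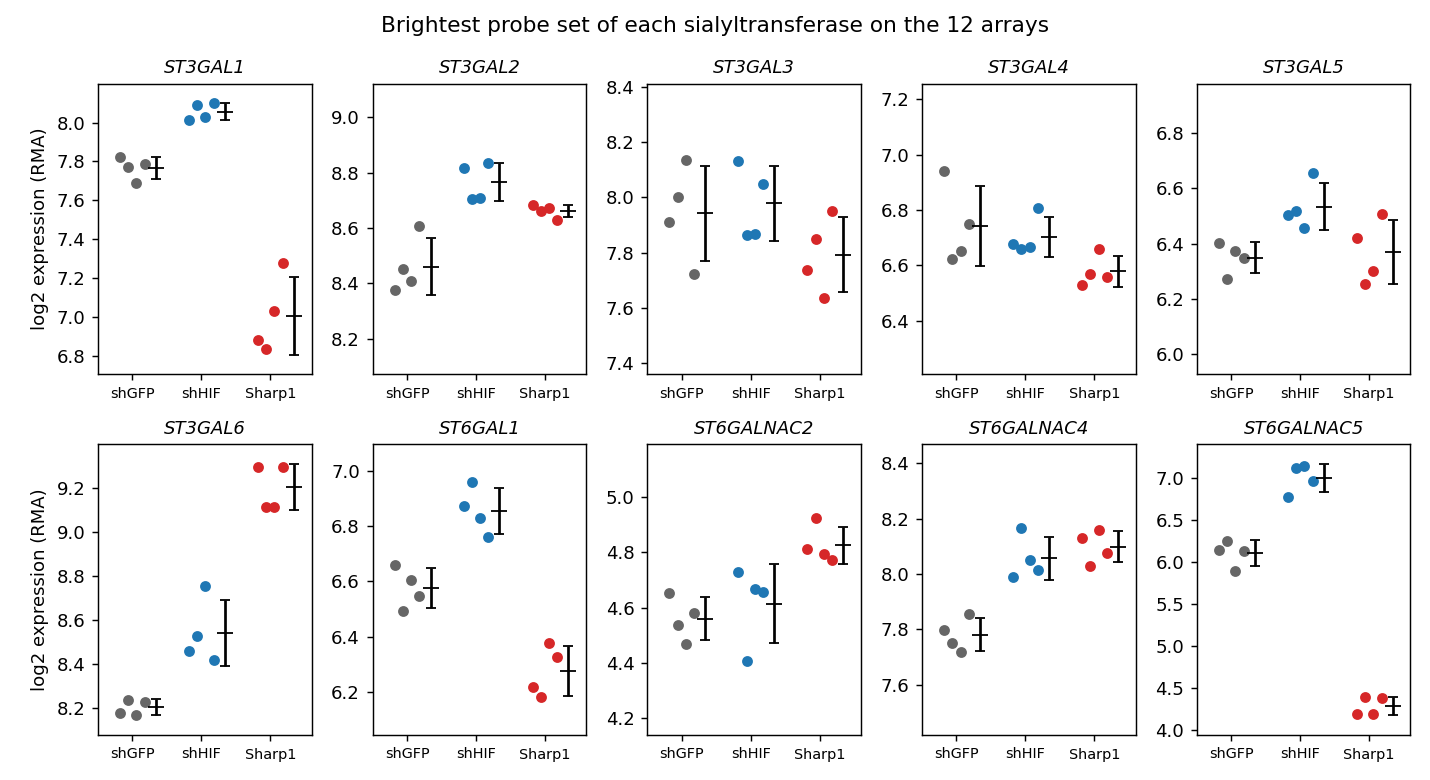
Log2 intensity (y axis) of the brightest probe set of each of the 10 sialyltransferases on each array, in 1 panel per gene, with arrays grouped as shGFP, shHIF and Sharp1 (x axis); points are single arrays, and bars are the group mean ± SD (n = 4). Each panel has its own y range; ST6GALNAC5 separates into 3 levels, at 6.10, 7.0 and 4.28, while the groups overlap in the ST3GAL3 and ST3GAL4 panels.

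Of the other 2 probe sets of ST6GALNAC5, 1 gave the Sharp1 fall and neither was called higher in shHIF. Probe set 230482_at read 5.15, 5.68, 5.25 and 5.42 in shGFP, 5.34, 5.61, 5.91 and 5.19 in shHIF, and 4.42, 4.67, 4.54 and 4.15 in Sharp1. All Sharp1 arrays were below all others, whereas the control and shHIF ranges overlapped. The Sharp1 difference there was -0.93 (limma adjusted p = 2.75e-05) and the shHIF difference was 0.14 (limma adjusted p = 0.561). The third probe set, 1562753_at, stayed between 3.94 and 4.16 in group mean, below the median probe set, and was not called in either comparison with control. Its shHIF arrays all lay above its control arrays, but the difference of 0.23 missed the threshold (limma adjusted p = 0.0916). Genes were also read from their brightest probe set without an s, x or a suffix (suffix-free), which for ST6GALNAC5 is 230482_at. Its mean over the 12 arrays, 5.11, is below the median probe set. With that reading the shHIF call of ST6GALNAC5 was lost (0.14, limma adjusted p = 0.518). Without the shHIF A and D arrays, whose spike-in means were the lowest of the 12, the shHIF difference was 1.02 (limma adjusted p = 1.95e-07).

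Since ST6GALNAC5 is a brain-type gene, the neural marker list was read beside it. All 5 neural markers (GFAP, MBP, SNAP25, RBFOX3, SYT1) were above the median probe set. Their mean over the list was 6.84 to 7.02 on the shGFP arrays, 6.98 to 7.08 on the shHIF arrays and 6.49 to 6.61 on the Sharp1 arrays. MBP fell by 0.94 and SYT1 fell by 0.72 in Sharp1, whereas both rose in shHIF, by 0.14 and 0.23. The other 3 were not called, with GFAP at -0.15, SNAP25 at -0.18 and RBFOX3 at 0.12 in Sharp1, and -0.16, -0.05 and 0.22 in shHIF. The list mean was lower on every Sharp1 array than on any control array, and the shHIF and control ranges overlapped. Its part in the ST6GALNAC5 result was not tested.

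The remaining ST6GALNAC members changed less. ST6GALNAC4, which adds sialic acid to the N-acetylgalactosamine of already sialylated core O-glycans, was higher in both altered lines. It read 7.80, 7.75, 7.72 and 7.85 in shGFP, 7.99, 8.17, 8.05 and 8.02 in shHIF, and 8.13, 8.03, 8.16 and 8.08 in Sharp1. The control arrays lay below all 8 other arrays, while shHIF and Sharp1 overlapped. The rise was 0.32 in Sharp1 (SE 0.06, limma adjusted p = 0.000197) and 0.28 in shHIF (SE 0.06, limma adjusted p = 0.00089). The direct difference between Sharp1 and shHIF was 0.04 (limma adjusted p = 0.621). A second probe set of ST6GALNAC4, 221551_x_at, rose by 0.33 and 0.23, and the other pair of probe sets was not called. On its suffix-free probe set, 228163_at, ST6GALNAC4 read -0.08 in Sharp1 (limma adjusted p = 0.698) and 0.12 in shHIF (limma adjusted p = 0.485). That probe set has a mean of 4.86 over all arrays, below the median probe set.

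ST6GALNAC2, which sialylates O-glycans, has 1 probe set, the only brightest member probe set below the median probe set. Its values were 4.65, 4.54, 4.47 and 4.58 in shGFP, 4.73, 4.41, 4.67 and 4.66 in shHIF, and 4.81, 4.92, 4.80 and 4.77 in Sharp1. The Sharp1 arrays lay above all others, and the control and shHIF arrays overlapped. The Sharp1 rise of 0.27 passed the threshold (limma adjusted p = 0.0373) but not when adjusted over all probe sets (limma adjusted p = 0.0624), nor with the replicate block (limma adjusted p = 0.0555), nor without any single control or Sharp1 array other than shGFP A (limma adjusted p up to 0.108).

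ST3GAL1 and ST3GAL2 cap galactose on core O-glycans and, for ST3GAL2, on gangliosides, and the 2 genes moved in different directions in Sharp1 cells. ST3GAL1 read 7.82, 7.77, 7.69 and 7.79 in shGFP, 8.01, 8.09, 8.03 and 8.10 in shHIF, and 6.88, 6.83, 7.03 and 7.28 in Sharp1. The groups did not overlap, and Sharp1 D was the closest of its group to control. The Sharp1 level was 1.69-fold lower than control (log2 difference -0.76, SE 0.08, limma adjusted p = 2.86e-08). All 3 probe sets of ST3GAL1 fell in Sharp1, by 1.06 for 225033_at and by 0.56 for 225034_at. The shHIF rise was 0.29 (SE 0.08, limma adjusted p = 0.00593) on the brightest probe set, and the other probe sets read 0.11 and -0.14 and were not called. Averaging the probe sets of each gene gave 0.08 for ST3GAL1 in shHIF (limma adjusted p = 0.3), which ends that call.

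ST3GAL2 read 8.38, 8.45, 8.41 and 8.61 in shGFP, 8.82, 8.70, 8.71 and 8.84 in shHIF, and 8.68, 8.66, 8.67 and 8.63 in Sharp1. The highest control array was just below the lowest Sharp1 array. It rose by 0.20 in Sharp1 (SE 0.06, limma adjusted p = 0.00882) and by 0.31 in shHIF (SE 0.06, limma adjusted p = 0.000149). These calls rest on 217650_x_at, a probe set of the type that can cross-hybridise. The other 4 probe sets of ST3GAL2 were not called in any comparison. Averaged over its probe sets, ST3GAL2 read 0.03 in Sharp1 (limma adjusted p = 0.742) and 0.11 in shHIF (limma adjusted p = 0.101).

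ST3GAL5, the synthase of the simplest ganglioside and so the entry to the ganglioside pathway, was called in no comparison. It read 6.40, 6.27, 6.37 and 6.35 in shGFP, 6.50, 6.52, 6.46 and 6.65 in shHIF, and 6.42, 6.25, 6.30 and 6.51 in Sharp1. The shHIF arrays were all above the control arrays, but the difference of 0.18 missed the threshold (limma adjusted p = 0.0949), and it passed when the fit had no trend (limma adjusted p = 0.0487). The Sharp1 difference was 0.02 (limma adjusted p = 0.91).

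Among the ST3GAL members that act mainly on lactosamine ends, ST3GAL6 rose. It read 8.18, 8.24, 8.17 and 8.23 in shGFP, 8.46, 8.53, 8.76 and 8.42 in shHIF, and 9.30, 9.12, 9.12 and 9.30 in Sharp1. The groups did not overlap. Sharp1 cells were 2.01-fold above control (log2 difference 1.00, SE 0.07, limma adjusted p = 8.58e-12), and shHIF cells were above control by 0.34 (SE 0.07, limma adjusted p = 0.000286). The direct Sharp1 to shHIF difference was 0.67 (limma adjusted p = 9.26e-09).

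Probe sets of ST3GAL6 did not all follow this order. Probe set 210942_s_at read 7.89, 7.80, 7.64 and 7.89 in shGFP and 8.89, 8.74, 8.72 and 8.82 in Sharp1, a rise of 0.99. Probe set 213873_at read 5.67, 5.99, 5.84 and 5.87 in shGFP, 6.83, 6.91, 7.17 and 6.74 in shHIF, and 6.21, 5.79, 5.81 and 6.14 in Sharp1. There the shHIF arrays stood alone, 2.09-fold above control (log2 difference 1.07, limma adjusted p = 8.77e-08), and the Sharp1 difference of 0.14 was not called (limma adjusted p = 0.463). Sharp1 was lower than shHIF by 0.92 at 213873_at and higher by 0.80 at 210942_s_at, so the sign of the direct comparison depends on the probe set. The dim 213335_s_at read 0.44 in Sharp1, which was called, and -0.17 in shHIF, which was not. Over the 4 probe sets, 3 were called higher in Sharp1 than in shHIF and 1 lower. Which transcripts each probe set reads was not analysed here.

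ST3GAL3 and ST3GAL4, which also sialylate galactose on lactosamine chains, were not called on their brightest probe sets. ST3GAL3 read 7.91, 8.0, 8.13 and 7.72 in shGFP, 8.13, 7.86, 7.87 and 8.05 in shHIF, and 7.74, 7.85, 7.64 and 7.95 in Sharp1, so all groups overlapped. Of its 7 probe sets, 225905_s_at separated the groups, at 7.86, 7.85, 7.81 and 7.81 in shGFP, 7.68, 7.56, 7.58 and 7.69 in shHIF, and 8.05, 7.98, 8.16 and 8.06 in Sharp1. It rose by 0.23 in Sharp1 (limma adjusted p = 0.0107) and fell by 0.21 in shHIF (limma adjusted p = 0.0169). It was also called higher in Sharp1 than in shHIF, by 0.43, as was 1555702_a_at, by 0.33 (limma adjusted p = 0.0103). On the brightest ST3GAL3 probe set that direct difference was -0.18 and was not called. ST3GAL4 read 6.94, 6.62, 6.65 and 6.75 in shGFP, 6.68, 6.66, 6.66 and 6.81 in shHIF, and 6.53, 6.57, 6.66 and 6.56 in Sharp1. Its differences from control were -0.16 in Sharp1 (limma adjusted p = 0.159) and -0.04 in shHIF (limma adjusted p = 0.772), so the gene whose window holds the E-box printed above was not called.

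ST6GAL1, which caps lactosamine on N-glycans, moved in the same directions as ST6GALNAC5 with smaller differences. It read 6.66, 6.49, 6.61 and 6.55 in shGFP, 6.87, 6.96, 6.83 and 6.76 in shHIF, and 6.22, 6.18, 6.38 and 6.33 in Sharp1. The 3 groups did not overlap. It fell by 0.30 in Sharp1 (SE 0.08, limma adjusted p = 0.00469) and rose by 0.28 in shHIF (SE 0.08, limma adjusted p = 0.00806). Its other pair of probe sets lay between 2.96 and 3.64 in group mean, below the median probe set, and was not called. Averaging all 3 probe sets gave -0.09 in Sharp1 (limma adjusted p = 0.293) and 0.11 in shHIF (limma adjusted p = 0.156), which ends both calls.

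**Figure D2:**
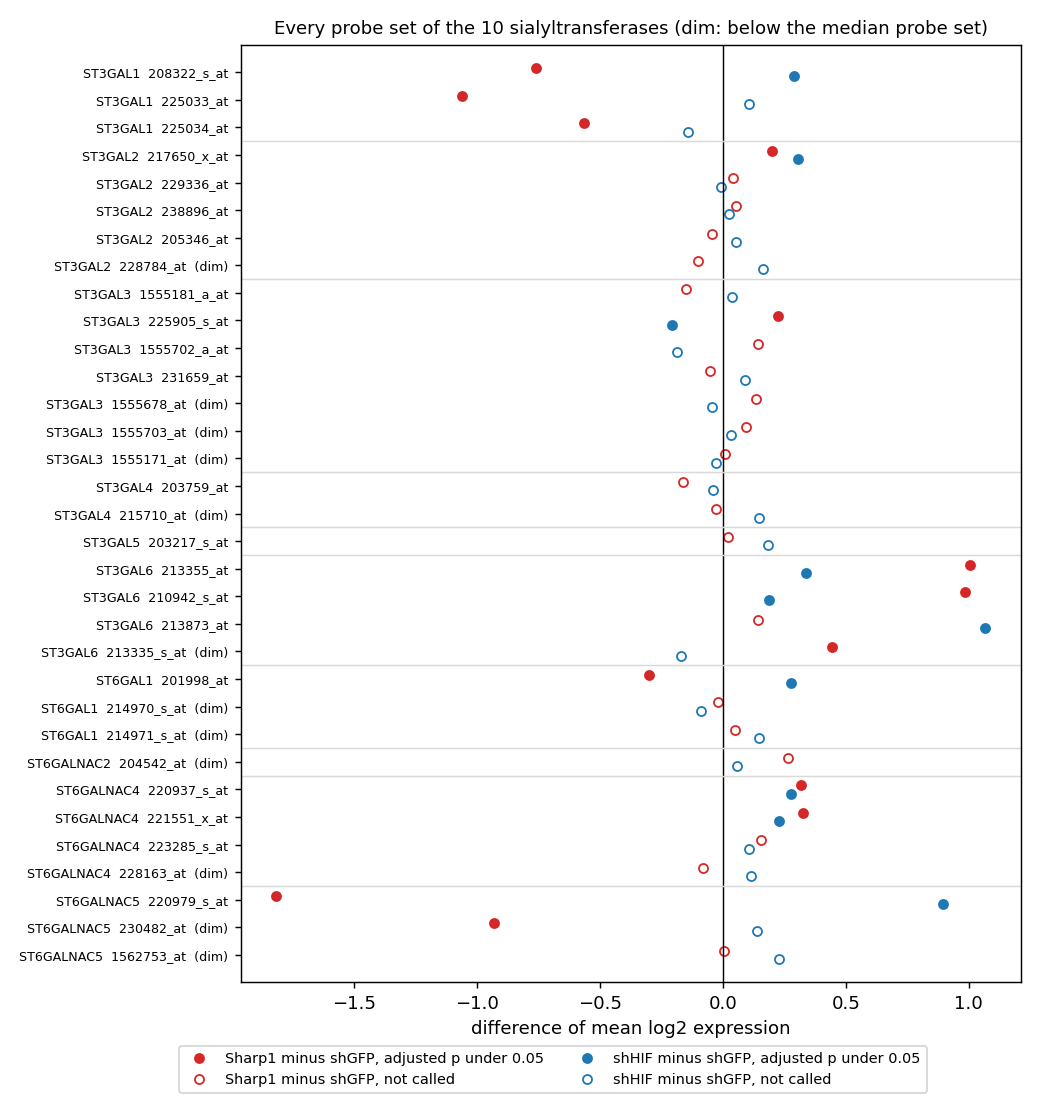
Log2 difference from shGFP (x axis) of each of the 33 member probe sets, grouped by gene (y axis), for Sharp1 and for shHIF; filled points were called and open points were not. The 3 probe sets of ST3GAL1 lie below 0 in Sharp1, ST3GAL2 has called points at 217650_x_at alone, and the ST3GAL6 probe sets split between a Sharp1 rise and the shHIF rise of 1.07 at 213873_at.

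Over the 10 genes, Sharp1 cells had 4 called higher (ST3GAL2, ST3GAL6, ST6GALNAC2, ST6GALNAC4), 3 called lower (ST3GAL1, ST6GAL1, ST6GALNAC5) and 3 not called. That is 70% of the members, beside 27.2% of all genes tested, with a median difference of -0.06 for the members and -0.0018 for all genes. The members were chosen with earlier results of these data known, and 9 of the 10 brightest probe sets were above the median probe set. Shares of members called, here and below, are therefore a description and not a test. In shHIF cells 6 members were called higher, 0 were called lower and 4 were not called in the limma fit. The 6 called are 60% of the members, beside 30.8% of all genes, with medians of 0.28 and 0.05. At an unadjusted p under 0.05, 7 members were higher and 0 were lower, beside 4603 higher and 3145 lower of all 19775 genes. The actin 3′ minus 5′ log2 difference, a sign of RNA quality, was above every other array on 3 shHIF arrays, A at 0.94, B at 0.90 and C at 0.91, with shHIF D at 0.62. It was 0.59 to 0.74 on the shGFP arrays and 0.56 to 0.85 on the Sharp1 arrays, and its part in the shHIF calls was not tested. Of all genes called in shHIF, 3482 were higher and 2613 were lower. At 33 probe sets, 13 were called in Sharp1 (7 higher, 6 lower), 39.4% beside 18.1% of all probe sets, and 10 were called in shHIF (9 higher, 1 lower), 30.3% beside 22.2%. Reading genes from suffix-free probe sets left 2 of the members called in shHIF in place of 6, and the share of all genes called under that reading is not given here. Both comparisons use the same 4 control arrays. The 6 members called in both split into ST3GAL2, ST3GAL6 and ST6GALNAC4, which were higher in both lines, and ST3GAL1, ST6GAL1 and ST6GALNAC5, which were lower in Sharp1 and higher in shHIF.

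**Figure D3:**
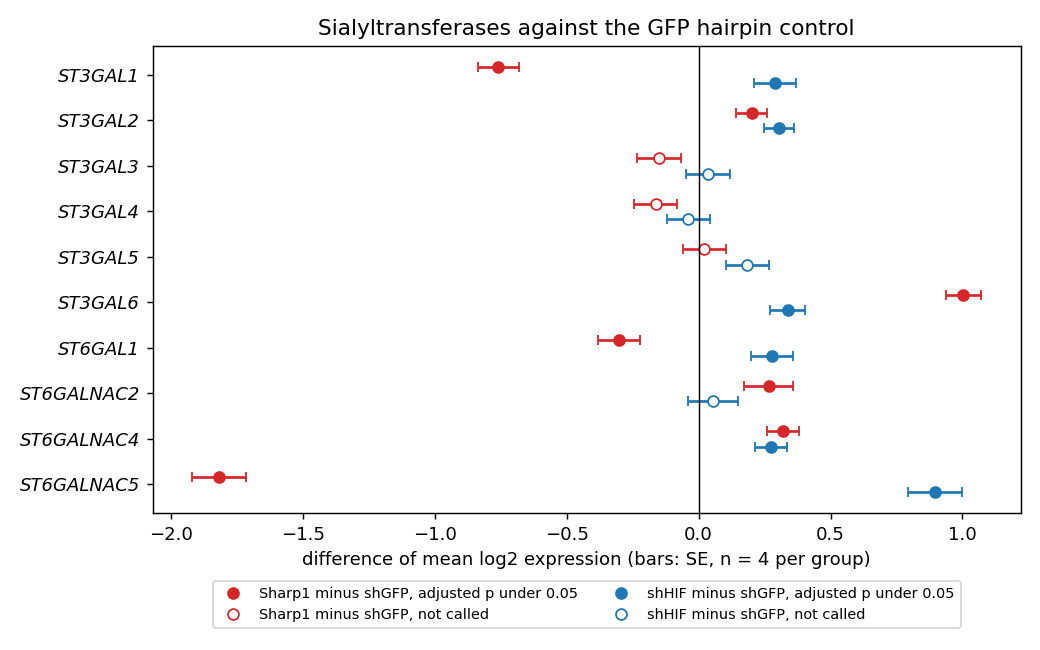
Log2 difference from shGFP with its standard error (x axis) for the brightest probe set of each member (y axis), for Sharp1 and shHIF. ST6GALNAC5, ST3GAL1 and ST6GAL1 lie on opposite sides of 0 in the 2 lines, and ST3GAL6 has the largest rise, 1.00 in Sharp1.

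The difference between the altered lines was tested directly, without the control arrays entering the contrast. In Sharp1 against shHIF, ST6GALNAC5 (-2.71), ST3GAL1 (-1.05) and ST6GAL1 (-0.58) were called lower and ST3GAL6 (0.67) was called higher. The other 6 members were not called on their brightest probe sets. The 4 called members are 40% of the 10, beside 38.4% of all genes, so the share called was near that of all genes. The probe sets gave 12 of 33 called, 36.4% beside 29.1%. The median difference was -0.14 for the members and -0.06 for all genes.

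The sialyltransferases outside the 10 members were measured mostly at low intensity. Of 9 tested, 1 was called in each comparison with control, and the list medians were -0.09 in Sharp1 and 0.07 in shHIF. The share called was 11.1% in each, beside 27.2% of all genes in Sharp1 and 30.8% in shHIF. ST6GALNAC3, a ganglioside and O-glycan enzyme, fell by 0.53 in Sharp1 (limma adjusted p = 0.00317) from a control mean of 4.04. ST8SIA5, which extends gangliosides with further sialic acid, rose by 0.32 in shHIF (limma adjusted p = 0.00457). ST6GALNAC6, another ganglioside enzyme, had a control mean of 7.11 and read 0.00 in Sharp1 and 0.16 in shHIF, neither called. ST6GAL2, ST6GALNAC1, ST8SIA1, ST8SIA2, ST8SIA3 and ST8SIA4 had control means from 2.86 for ST6GAL2 to 3.91 for ST8SIA4 and were not called on their brightest probe sets. Another ST8SIA4 probe set, with a control mean of 4.19, was called lower in both lines, at -0.37 in Sharp1 (limma adjusted p = 0.0395) and -0.67 in shHIF (limma adjusted p = 0.000231).

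Of 8 genes that supply sialic acid to the transferases, 1 was called higher and 3 lower in Sharp1, and 0 higher and 3 lower in shHIF in the limma fit. At an unadjusted p under 0.05, 1 was higher and 4 were lower in shHIF. The list medians were -0.10 in Sharp1 and -0.07 in shHIF, beside -0.0018 and 0.05 over all genes tested, of which 27.2% and 30.8% were called. GNE, the enzyme that starts sialic acid synthesis, fell by 0.39 in Sharp1 (limma adjusted p = 5.19e-09) and by 0.17 in shHIF (limma adjusted p = 0.000575). NANP, the phosphatase that frees sialic acid, fell by 0.30 in Sharp1 and by 0.49 in shHIF. NANS, the synthase before it, fell by 0.17 in shHIF. UAP1, which makes UDP-N-acetylglucosamine, rose by 0.45 in Sharp1, and NPL, the lyase that breaks sialic acid down, fell by 0.48. CMAS, which activates sialic acid, and SLC35A1, the Golgi transporter of CMP-sialic acid, were not called.

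Among 7 genes for sialidases and for sialic acid O-acetylation, 2 were called higher and 2 lower in Sharp1, and 4 higher and 1 lower in shHIF. These are 57.1% and 71.4% of the list, beside 27.2% and 30.8% of all genes tested. The list medians were 0.06 and 0.13. NEU1, the lysosomal sialidase, rose in both lines, by 0.49 in Sharp1 (limma adjusted p = 2.06e-08) and by 0.82 in shHIF (limma adjusted p = 4.33e-12). CTSA, the protein that stabilises NEU1 in the lysosome, fell by 0.33 in Sharp1. Its shHIF difference of 0.13 was called but lost the call in 15 of 21 alternatives (limma adjusted p up to 0.179). NEU3, the ganglioside sialidase of the plasma membrane, was called higher by 0.24 in shHIF, a call lost in 3 of 21. CASD1, which adds O-acetyl groups to sialic acid, fell by 1.00 in shHIF (limma adjusted p = 6.17e-09) and by 0.28 in Sharp1, where the call was lost in 6 of 21 alternatives. SIAE, the esterase that removes them, was called higher in both lines on its brightest probe set, by 0.54 and 0.46. Its suffix-free probe set, which is below the median probe set, read -0.13 and -0.19 and was not called. Another SIAE probe set, with a control mean of 3.84, was called lower in shHIF, at -0.51 (limma adjusted p = 0.00139). It read 0.29 in Sharp1 and was not called there. The remaining SIAE probe set read 0.04 in Sharp1 and 0.17 in shHIF, neither called.

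The enzymes that build the acceptors of the ST3GAL1 and ST6GALNAC members were mixed. Of 15 O-glycan core genes, 3 were called higher and 3 lower in Sharp1, and 4 higher and 6 lower in shHIF, with list medians of -0.03 and -0.01. Called genes made up 40% of this list in Sharp1 and 66.7% in shHIF, beside 27.2% and 30.8% of all genes. GALNT14, which starts O-glycans, followed the direction of ST6GALNAC5, with -0.80 in Sharp1 and 0.66 in shHIF. GALNT6, of the same family, fell in both, by 0.76 and 0.28. GCNT1, which branches core O-glycans, went the other way from GALNT14, with a rise of 0.59 in Sharp1 and a fall of 0.82 in shHIF. In Sharp1, B3GNT3 fell by 0.38. B3GNT6 and C1GALT1C1, the chaperone of the core synthase, were called higher in Sharp1 by 0.25 and 0.13, calls lost in 6 and 3 of 21 alternatives (limma adjusted p up to 0.148 and 0.0931). In shHIF, GALNT7 rose by 0.28, GALNT12 fell by 0.50, and C1GALT1 was called higher by 0.30 but read -0.03 when its probe sets were averaged. Another C1GALT1 probe set, with a control mean of 8.14, was called lower in both lines. It read -0.23 in Sharp1 (limma adjusted p = 0.0434) and -0.22 in shHIF (limma adjusted p = 0.0475). The remaining C1GALT1 probe set read 0.01 in Sharp1 and -0.17 in shHIF, neither called.

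Of 15 galactosyltransferase, lactosamine and N-glycan branching genes, 8 were called higher and 2 lower in Sharp1, and 5 higher and 4 lower in shHIF, with list medians of 0.17 and 0.03. The share called was 66.7% in Sharp1 and 60% in shHIF, beside 27.2% and 30.8% of all genes. MGAT5, which adds an N-glycan branch, rose by 0.43 in Sharp1 and fell by 0.38 in shHIF, while MGAT4A and MGAT4B, of another branch, rose in both (0.31 and 0.36 in Sharp1, 0.49 and 0.37 in shHIF). B3GNT5, which starts lacto-series glycolipids, fell by 0.91 in Sharp1 and by 0.37 in shHIF, and B3GALT5 fell by 0.86 in Sharp1. B4GALT3 rose by 0.32 and GCNT2 fell by 0.31 in shHIF.

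Of 10 glycosphingolipid genes, which make or degrade gangliosides or neutral glycolipids, 1 was called higher and 3 lower in Sharp1. In shHIF 5 were called higher and 3 lower, and the list medians were 0.02 in Sharp1 and 0.10 in shHIF. Called genes made up 40% of the list in Sharp1 and 80% in shHIF, beside 27.2% and 30.8% of all genes. HEXA, the lysosomal enzyme that trims gangliosides, fell by 0.84 in Sharp1 (limma adjusted p = 1.17e-10). In shHIF it read 0.33 on its brightest probe set, a call. The brightest suffix-free probe set of HEXA, which is below the median probe set, read -0.02 in shHIF and was not called. Its activator GM2A read -0.18 in Sharp1, a call lost in 7 of 21 alternatives (limma adjusted p up to 0.144). In shHIF it fell by 0.28, and by 0.04 with its probe sets averaged, which was not called (limma adjusted p = 0.662). GLA, which degrades neutral glycolipids, rose by 0.36 and 0.75. In shHIF, B4GALT5 and B4GALT6, which both make lactosylceramide, the acceptor of ST3GAL5, moved apart, with a rise of 0.48 and a fall of 0.60. B4GALNT1, which makes complex gangliosides, rose by 0.39 in shHIF and read 0.04 in Sharp1, not called. B3GALNT1, of the globo series, fell by 0.42 in Sharp1 and by 0.40 in shHIF.

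Fucosylation genes, some of which complete selectin ligands with ST3GAL6 and ST3GAL4, had 2 of 12 called higher and 1 lower in each comparison with control. That is 25% of the list in each, beside 27.2% of all genes in Sharp1 and 30.8% in shHIF. The list medians were 0.10 in Sharp1 and 0.05 in shHIF. FUT8, the core fucosyltransferase of N-glycans, fell by 0.75 in Sharp1 and by 0.38 in shHIF. GMDS, which makes GDP-fucose, was called higher by 0.46 in Sharp1, and POFUT1 rose by 0.30. The suffix-free GMDS probe set, which is below the median probe set, read -0.06 in Sharp1 and was not called. SLC35C1, the GDP-fucose transporter, rose by 0.56 in shHIF. FUT7, a selectin-ligand fucosyltransferase, read 0.28 in shHIF, a call lost in 15 of 21 alternatives (limma adjusted p up to 0.22).

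**Figure D4:**
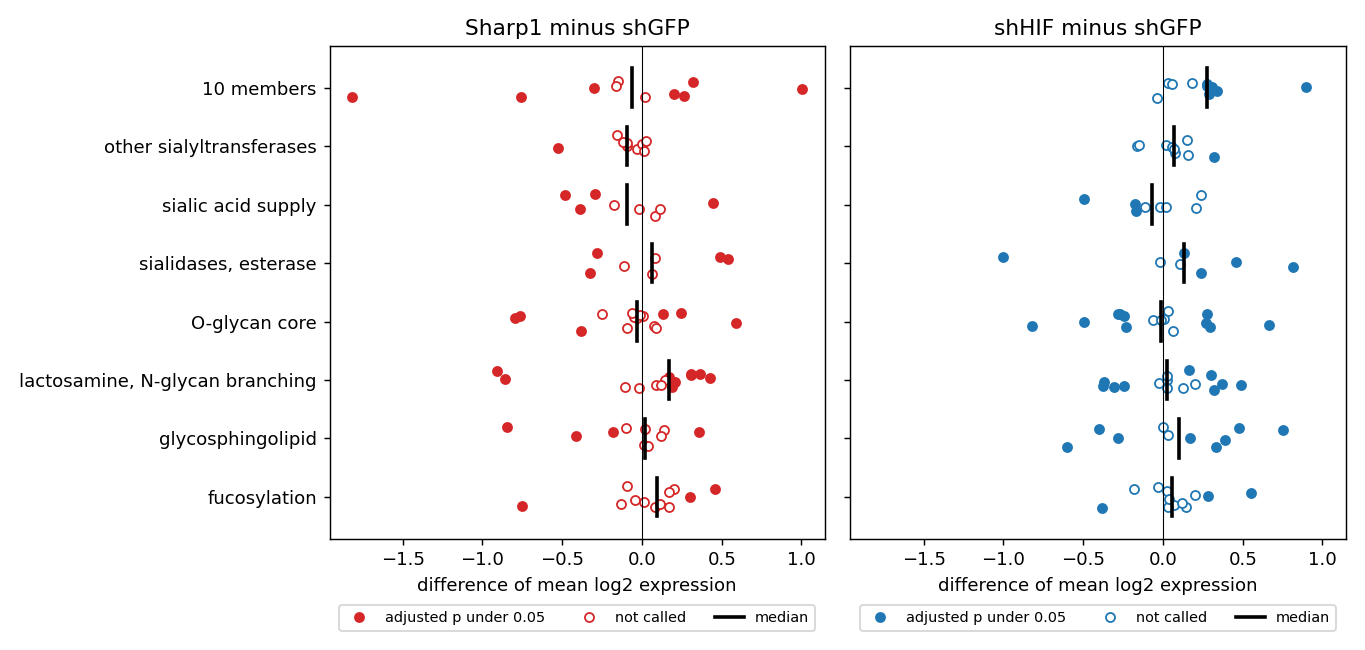
Log2 difference from shGFP (x axis) of the 10 members and of the genes in 7 pathway lists (y axis), with Sharp1 in the left panel and shHIF in the right; points are genes, filled where called, and bars are list medians. Members range from -1.82 to 1.00 in Sharp1, and their shHIF median of 0.28 sits above the 0.05 of all genes.

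ST6GALNAC5 was also read beside 12 genes known as mediators of brain metastasis in breast cancer lines. In Sharp1, 5 were called higher and 4 lower. In shHIF, 7 were called higher and 3 lower. These are 75% and 83.3% of the list, beside 27.2% and 30.8% of all genes tested. The list medians were -0.07 and 0.22. PTGS2 (cyclooxygenase), described with ST6GALNAC5 and HBEGF as a mediator of brain entry, rose by 3.12 in Sharp1 (limma adjusted p = 9.87e-19) and by 0.42 in shHIF. HBEGF, an EGF receptor ligand, rose by 0.66 in Sharp1 and fell by 0.31 in shHIF, opposite to ST6GALNAC5 in both. MMP1, a collagenase, fell by 1.28 in Sharp1 and rose by 1.58 in shHIF, and LTBP1, a TGF-beta binding protein, fell by 0.33 and rose by 0.52, as ST6GALNAC5 did. FSCN1, an actin-bundling protein, fell in both, by 0.57 and 0.85, and PLOD2, a collagen lysyl hydroxylase, rose in both, by 0.53 and 0.26. L1CAM, an adhesion molecule used in vessel co-option, fell by 1.92 in shHIF and read -0.08 in Sharp1, not called. CTSS, a secreted protease, rose by 0.45 in shHIF.

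The genes whose profile over the 12 arrays was most like that of ST6GALNAC5 were sought among the 9789 called in at least 1 comparison. Likeness was the root mean square of the difference between log2 values, each gene centred on its own mean. The smallest values were 0.14 for AKR1C3, an aldo-keto reductase, 0.15 for INPP4B, a phosphoinositide phosphatase, 0.20 for CD74, the invariant chain, 0.21 for BEX2 and 0.29 for SORBS2, beside a median of 1.13 over the compared genes. AKR1C3 read 9.21, 9.35, 9.27 and 9.37 in shGFP, 10.18, 10.16, 10.14 and 10.16 in shHIF, and 7.38, 7.38, 7.57 and 7.53 in Sharp1. Its differences from control, -1.84 and 0.86, were close in size to the -1.82 and 0.90 of ST6GALNAC5. The genes were chosen for this likeness, so it is given as a description.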

How the data were processed

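The data are 1 deposited table of log2 intensities, made by the authors with RMA (no version given) per the submitters' processing notes, for 12 Affymetrix arrays. RMA corrects background, quantile-normalises and summarises probes, so a shift shared by most transcripts is removed before deposition. The arrays carry no read depth, and the number of arrays, 4 per group, limits the precision. The table has 54675 probe sets, of which 62 are controls. The platform annotation gave 41097 probe sets 1 gene symbol, and 41043 of these matched a current gene record with no symbol changed. Each of 19775 genes was represented by the probe set with the highest mean over all arrays.

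Differences were tested with limma 3.58.1 in R 4.3.3 (a mean per group over all 12 arrays, eBayes with trend, Benjamini-Hochberg over all genes, or over all 54613 probe sets for probe-set values). The code was tested on simulated data. Replicate letters did not pair the arrays: same-letter deviations correlated between -0.18 and 0.14. Genes named are all members, up to 3 of the largest called rises and falls per list and comparison, and the 5 nearest profiles to ST6GALNAC5. The members and lists were chosen with earlier results of these data known. Alternatives were other ways of reading a gene, array centring, filters, no trend, the replicate block and leaving out arrays. A protein comparison was planned and not run here, and 8 list entries were not analysed here.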

Additional observations from a re-analysis of the deposited data

Results flagged for a closer look

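In 99 groups of 4 arrays, 1 for each member probe set and group, the highest or lowest array was set against the rest with Dixon's criterion, and chance gives about 1 flag in 20 groups. The first array to stand apart was shGFP B at 229336_at of ST3GAL2, at 7.49 against 7.60 to 7.61 on the other control arrays. The other was shHIF D at 203759_at of ST3GAL4, at 6.81 against 6.66 to 6.68 on the other shHIF arrays. Neither gene's probe set was called in that group's comparison with control.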

How the results depend on the processing

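The numbers of members called ranged from 5 to 7 in Sharp1, from 2 to 7 in shHIF and from 4 to 5 in Sharp1 against shHIF over all alternatives. The share of all genes called under each alternative is not given here, so the counts in this section cannot be read against it. With suffix-free probe sets, 2 members were called in shHIF in place of 6, and ST6GALNAC5 read 0.1384 there, on a probe set below the median probe set. The same choice reversed ST6GALNAC4 (-0.08167), SIAE (-0.1311) and GMDS (-0.05758) in Sharp1, and ST3GAL2 (-0.005926), SIAE (-0.1948) and HEXA (-0.01789) in shHIF. None of these reversed readings was called, and all but that of ST3GAL2 come from a probe set below the median probe set. Averaging a gene's probe sets reversed SIAE (-0.01817) and C1GALT1 (-0.03077) in shHIF and GM2A (-0.1394) in Sharp1 against shHIF. The averaged GM2A reading was called (limma adjusted p = 0.0463), and those of SIAE and C1GALT1 were not. The cause was not tested. The difference of ST6GALNAC5 kept its direction throughout, from -1.89 to -0.91 in Sharp1, from 0.14 to 1.02 in shHIF and from -2.84 to -1.07 between the lines. With the replicate block, 6, 6 and 4 members were called in Sharp1, shHIF and their contrast, with ST6GALNAC2 lost in Sharp1. Of 627 refits of member genes, 602 were classed as the same, 17 lost the call, 6 gained it and 2 reversed. A change of sign was counted as a reversal only where the main or the alternative reading was called. Changes of sign without a call are therefore among the 602, such as ST3GAL3 in Sharp1, at -0.15 and, averaged, 0.06. Without shHIF A and D, 7 members were called in Sharp1 and 6 in shHIF. Calls lost in 1 alternative each were GCNT2 and MGAT4A in Sharp1, and NANS, GALNT12, B3GNT5, B4GALNT1, B3GALNT1, HBEGF and CTSS in shHIF. B3GNT6 in shHIF lost its call in 6. Low intensity limits ST6GALNAC5 in Sharp1 cells, ST6GALNAC2, ST6GALNAC3 and the dim probe sets.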
